A study of Mus musculus with 2 samples.

Results

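Axon guidance ligands and receptors were examined in single cells of the Sim1 lineage from newborn mouse hypothalamus. The members were the genes whose symbols name an Eph receptor (Epha or Ephb), an ephrin (Efna or Efnb), a semaphorin, a plexin, a neuropilin, a Slit, a Robo, netrin (Ntn1, Ntn3 or Ntn4), Dcc or an Unc5 receptor. Of 24905 genes in the deposited table, 65 matched these symbols, and the 56 with at least 30 UMIs over both libraries were described: 28 ligands and 28 receptors. A UMI (unique molecular identifier) marks 1 captured RNA molecule. The members just above the minimum were Epha6 with 31 UMIs, Ephb3 with 33 and Ntn1 with 35. Just below it were Sema3b with 27 UMIs, Sema3g with 22 and Plxnd1 with 20. The others left out were Sema3d, Efna4, Ephb4, Efna1, Robo4 and Epha1, with 4 to 19 UMIs.

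Guidance molecules steer growing axons by attraction or repulsion. Secreted semaphorins of class 3 bind neuropilins, which signal through plexins, whereas most other semaphorins bind plexins directly. Ephrins are anchored in the membrane and bind Eph receptors on neighbouring cells, and signals can pass in both directions. Netrin attracts through Dcc and repels through Unc5 receptors, and Slits repel through Robo receptors. Sim1 is a transcription factor required to form the paraventricular nucleus of the hypothalamus, whose neurons send axons to the median eminence, the posterior pituitary, the brainstem and the spinal cord.

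Cells came from CD-1 pups (an outbred stock) aged postnatal day 1 to 4. The Sim1 heterozygous library (Sim1-Cre, tdTomato, with 1 Sim1 copy lost) and the control library (Sim1-Cre, tdTomato) were each made from sorted tdTomato-positive cells of pooled pups by Drop-seq, which counts the 3' ends of RNA molecules in droplets. The sample labels give 6 pups for each pool, while the extraction protocol gives 5 to 6 mice. All pups of both groups carried Sim1-Cre and the Ai14 tdTomato reporter, which stays on in cells that express Sim1 or descend from cells that did. With 1 library per genotype, each difference between genotypes compares 2 libraries and has no replicate check. No p-value is given, and all intervals are 95% intervals of counting error only. Whether the pools differed in the mix of ages or in genetic background was not tested.

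After cells with under 300 detected genes were left out, 2454 Sim1 heterozygous and 2806 control cells remained, and no barcode was shared between the libraries. Cells with 3 or more of 12 glial markers were set apart as glia-like (52 Sim1 heterozygous and 39 control cells), which left 2402 heterozygous and 2767 control neurons, with 5332829 UMIs in the Sim1 heterozygous and 6462340 in the control library. Median depth per neuron was 1608.5 UMIs in the Sim1 heterozygous and 1788 UMIs in the control library. Summed fibroblast markers (6 genes) were at 3.0 CPM in Sim1 heterozygous and 36.4 CPM in control neurons, with 4 of the genes detected in heterozygous and 5 in control neurons. Pituitary markers (4 genes) were at 6.00 CPM in Sim1 heterozygous and 349 CPM in control neurons, with 2 of the genes detected in heterozygous and 3 in control neurons. CPM is the number of UMIs of a gene over all UMIs of the cells summed, times 1000000. RNA of other cells therefore differed between the libraries, and its part in the ratios below was not tested beyond leaving out the cells that carried 2 or more fibroblast, endothelial or microglia markers (2 Sim1 heterozygous and 12 control cells), which moved no count of members over neurons or between groups by 1.5 times.

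Neurons were sorted into 5 groups by marker genes. Hormone cells had at least 10 UMIs of Oxt plus Avp, or at least 3 of Crh, Trh or Sst (152 Sim1 heterozygous and 268 control cells). The remaining cells with at least 1 UMI of exactly 1 of 4 transcription factors formed the other groups. The Otp group had 287 heterozygous and 557 control cells, the Foxb1 group 1109 heterozygous and 850 control cells, the Neurod6 group 33 heterozygous and 72 control cells, and the Tcf7l2 group 26 heterozygous and 122 control cells. Foxb1 marks the mammillary region, and Otp is a determinant of neuroendocrine hypothalamic neurons. Genes listed to check the gates, and not used in them, followed most gates but not the Otp gate. They were highest in their own group in both libraries for 3 of 4 genes in hormone cells (not Scg2), 0 of 3 in Otp cells, 3 of 4 in Foxb1 cells (not Sim2), 4 of 4 in Neurod6 cells and 3 of 4 in Tcf7l2 cells (not Calb2). Uncx, listed for Otp cells, was at 86.1 CPM in heterozygous and 95.5 CPM in control Otp cells, against 143 CPM in heterozygous and 167 CPM in control Foxb1 cells. Lhx5 was barely highest in Foxb1 cells, at 101 CPM in heterozygous and 119 CPM in control cells, against 96.9 CPM in heterozygous and 90.5 CPM in control Otp cells. Scg2 was at 1834 CPM in heterozygous and 1324 CPM in control hormone cells, and at 2225 CPM in heterozygous and 1435 CPM in control Otp cells. Calb2 was at 394 CPM in heterozygous and 985 CPM in control Tcf7l2 cells, and at 542 CPM in heterozygous and 370 CPM in control Neurod6 cells. The clearest check gene was Lhx1, a mammillary factor, which was at 844 CPM in Sim1 heterozygous and 709 CPM in control Foxb1 cells, against 72.7 CPM in heterozygous and 43.5 CPM in control Otp cells. Lhx9 was at 241 CPM in Sim1 heterozygous and 448 CPM in control Tcf7l2 cells, and at most 2.53 CPM in any other gated group. Sim2, also listed as a check of the Foxb1 gate, was near 0 there, with 7 Sim1 heterozygous and 1 control UMIs. Sim1 itself was at 125 CPM in heterozygous and 171 CPM in control hormone cells, 118 CPM in heterozygous and 168 CPM in control Otp cells, and 84.5 CPM in heterozygous and 94.1 CPM in control Foxb1 cells. Which part of Sim1 is deleted was not known here, so these 3' counts do not check the genotype labels. Sim1 had 0 of 78676 UMIs in the 26 Sim1 heterozygous Tcf7l2 cells, where 3 UMIs would be 38.1 CPM, and was at 12.2 CPM in the control ones.

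The make-up of the libraries differed. Foxb1 cells made up 46.2% of heterozygous and 30.7% of control neurons, Otp cells 11.9% of heterozygous and 20.1% of control neurons, and hormone cells 6.33% of heterozygous and 9.69% of control neurons. Of the hormone cells, 28 of 152 Sim1 heterozygous and 130 of 268 control cells were Oxt or Avp cells. A ratio over all neurons therefore mixes the level per cell group with the share of each group. Levels of different genes were not ranked, since a 3' UMI count also depends on how well each transcript is captured.

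The 5 groups carried members at different total levels. Summed over the 56 members, the Foxb1 group had 3236 CPM in Sim1 heterozygous and 2855 CPM in control cells. The Otp group had 2534 CPM in heterozygous and 2248 CPM in control cells, and the hormone group 1883 CPM in heterozygous and 1713 CPM in control cells. Within the hormone group, the Oxt or Avp cells were at 1218 CPM in the Sim1 heterozygous and 1348 CPM in the control library, where Oxt and Avp took up 10.5% of heterozygous and 10.4% of control UMIs. Ligands were nearly level between the same groups (727 CPM in heterozygous and 672 CPM in control Foxb1 cells, 623 CPM in heterozygous and 586 CPM in control hormone cells), so the wider gap lay in the receptors, at 2509 CPM in heterozygous and 2182 CPM in control Foxb1 cells against 1260 CPM in heterozygous and 1127 CPM in control hormone cells.

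**Figure D1:**
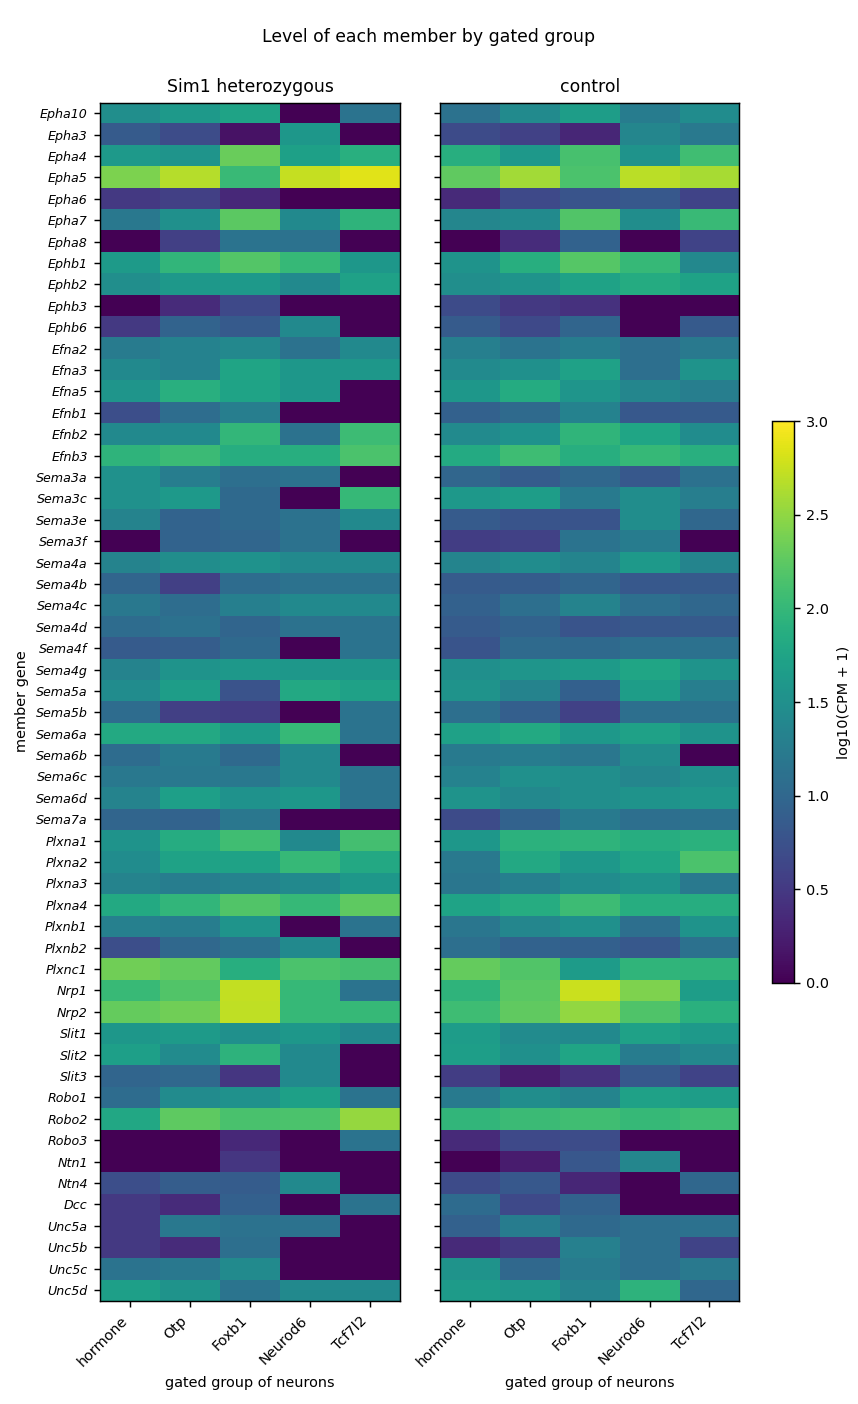
Level of each of the 56 members in the 5 gated groups, as log10(CPM + 1), in the Sim1 heterozygous library (left panel) and the control library (right panel). Nrp1, Nrp2, Epha4 and Epha7 are brightest in the Foxb1 column in both libraries, and Plxnc1 in the hormone column.

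A member was counted as higher or lower in a group when it differed at least 2-fold from the other gated cells in both libraries, with a pseudocount of 1 UMI on each side. Counts are given by group for the 54 members with at least 20 UMIs in gated cells, each beside the share of all genes. The Foxb1 group had 10 members higher (18.5%), against 2.39% of the 14662 genes measured in the same way, and 6 lower (11.1%), against 2.26%. Hormone cells had 2 members higher (3.7%, against 1.91% of genes) and 9 lower (16.7%, against 1.6%). In Otp cells 1 member was higher (1.85%, against 1.04%) and 5 were lower (9.26%, against 1.36%). These contrasts share cells: Foxb1 cells held 64.5% of the gated UMIs in the Sim1 heterozygous and 39.8% in the control library, so a gene high in them tends to be counted low in the others. With the other 4 groups weighted equally, an alternative chosen after seeing the data, 5 of the 9 lower calls in hormone cells remained (Epha7, Epha8, Ephb1, Sema3f and Plxna1).

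The 2 small groups need their own reading. A single UMI is worth 12.6 CPM in the 33 Sim1 heterozygous and 5.69 CPM in the 72 control Neurod6 cells, and 12.7 CPM in heterozygous and 3.05 CPM in control Tcf7l2 cells, so the pseudocount alone lifts a rare gene there. Neurod6 cells had 10 members higher (18.5%), but 13.7% of all genes were called too, and 2 members were lower (3.7%, against 0.539%). Tcf7l2 cells had 3 members higher (5.56%, below the 9.84% of all genes) and 4 lower (7.41%, against 0.491%). With an equal pseudocount in CPM on both sides, an alternative chosen after seeing the data, 3 members were higher in Neurod6 cells (against 1.92% of all genes) and 0 in Tcf7l2 cells (against 2.25%). The lower calls then became 6 in Neurod6 cells (against 14.3% of all genes) and 9 in Tcf7l2 cells (against 9.46%), while the Foxb1 counts stayed at 10 higher and 6 lower. Sema5a was the single member among the 13 calls of higher level in these 2 groups with at least 5 UMIs in each library.

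Neuropilins, the binding receptors of class 3 semaphorins, marked the Foxb1 group. Nrp1 (chromosome 8, 128358604 to 128503363, plus strand, mm10) was at 530 CPM [502 to 559] in Sim1 heterozygous and 577 CPM [542 to 613] in control Foxb1 cells, against 125 CPM in the other gated heterozygous cells and 137 CPM in the other gated control cells, 4.23-fold higher in the heterozygous and 4.21-fold higher in the control library. It was at 152 CPM in heterozygous and 170 CPM in control Otp cells, at 104 CPM in heterozygous and 88.5 CPM in control hormone cells, and lowest in Tcf7l2 cells, at 12.7 CPM (1 UMI) in heterozygous and 45.8 CPM (15 UMIs) in control cells. The order Foxb1, Otp, hormone, Tcf7l2 was thus the same in both libraries, while Neurod6 cells differed between them, at 101 CPM [43.5 to 199] in heterozygous and 262 CPM [192 to 349] in control ones. Nrp2 (chromosome 1, 62703285 to 62818695, plus strand) was at 515 CPM [487 to 544] in Sim1 heterozygous and 326 CPM [300 to 354] in control Foxb1 cells, against 199 CPM in the other gated heterozygous cells and 150 CPM in the other gated control cells. That was 2.58-fold higher in the heterozygous and 2.17-fold higher in the control library. Nrp2 was at 221 CPM in heterozygous and 185 CPM in control Otp cells, 197 CPM in heterozygous and 118 CPM in control hormone cells, and 102 CPM in heterozygous and 79.3 CPM in control Tcf7l2 cells.

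Plexins, the signalling receptors for semaphorins, split between groups. Plxnc1 (chromosome 10, 94790866 to 94944835, minus strand), the receptor of Sema7a, was at 222 CPM [182 to 269] in Sim1 heterozygous and 195 CPM [165 to 228] in control hormone cells, 2.18-fold (heterozygous) and 2.15-fold (control) above the other gated cells. Otp cells had 191 CPM [161 to 225] in heterozygous and 152 CPM [132 to 174] in control cells, intervals that overlap those of the hormone group, and Foxb1 cells had 74.5 CPM [64.2 to 86.0] in heterozygous and 43.2 CPM [34.1 to 53.9] in control cells. Low Plxnc1 in Foxb1 cells was thus the wider contrast, at 2.62-fold (heterozygous) and 3.50-fold (control) below the other gated cells, and with the other 4 groups weighted equally the call in hormone cells was lost. Among hormone cells, Plxnc1 was at 285 CPM in heterozygous and 267 CPM in control Oxt or Avp cells, 329 CPM in heterozygous and 207 CPM in control Crh cells, 145 CPM in heterozygous and 149 CPM in control Trh cells, and 211 CPM in heterozygous and 128 CPM in control Sst cells. Of the 4 class A plexins, which pair with neuropilins, Plxna1 was the single one called, lower in hormone cells. It was at 33.9 CPM [19.4 to 55] in Sim1 heterozygous and 37.9 CPM [25.6 to 54.1] in control hormone cells, against 118 CPM in heterozygous and 88.0 CPM in control Foxb1 cells. Plxna4 was at 65.6 CPM in heterozygous and 54.3 CPM in control hormone cells and 151 CPM in heterozygous and 113 CPM in control Foxb1 cells, short of the 2-fold mark in 1 or both libraries in each group. Plxna2 and Plxna3 did not follow the same order. Plxna2 was at 52.5 CPM in heterozygous and 38.7 CPM in control Foxb1 cells and at 52.5 CPM in heterozygous and 63.4 CPM in control Otp cells, and Plxna3 at 20.4 CPM in heterozygous and 28.0 CPM in control Foxb1 cells and at 21.2 CPM in heterozygous and 13.9 CPM in control hormone cells.

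Among semaphorins, Sema3c, a secreted ligand of both neuropilins, was the member called higher in Otp cells. It was at 40.4 CPM [27.2 to 57.6] in Sim1 heterozygous and 46.3 CPM [35.8 to 59.1] in control Otp cells, 2.72-fold (heterozygous) and 2.04-fold (control) above the other gated cells. Foxb1 cells had 9.61 CPM [6.16 to 14.3] in heterozygous and 15.7 CPM [10.4 to 22.7] in control cells. Sema3c was therefore low where its receptors Nrp1 and Nrp2 were high, in both libraries. Hormone cells had 31.8 CPM [17.8 to 52.4] in heterozygous and 39.2 CPM [26.6 to 55.6] in control cells, which overlaps the Otp values, and the call in Otp cells was lost when the other groups were weighted equally. Within the hormone group the Crh cells had the most, with 9 UMIs in 35 Sim1 heterozygous cells (106 CPM [48.3 to 201]) and 22 UMIs in 33 control cells (207 CPM [130 to 313]). Sema5a, a transmembrane semaphorin, was lower in Foxb1 cells, at 4.81 CPM in the Sim1 heterozygous and 7.29 CPM in the control library, than in the other gated cells, at 40.8 CPM (heterozygous) and 25.9 CPM (control). In Neurod6 cells Sema5a was at 63.0 CPM [20.5 to 147] in the heterozygous library (5 UMIs) and 45.5 CPM [19.7 to 89.7] in the control library (8 UMIs). Sema5b, its close relative, was called higher in hormone cells from only 5 Sim1 heterozygous and 9 control UMIs. Sema3f, a ligand of Nrp2, was lower in hormone cells, with 0 UMIs in the Sim1 heterozygous library (3 UMIs would be 6.35 CPM) and 2 in the control library.

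**Figure D2:**
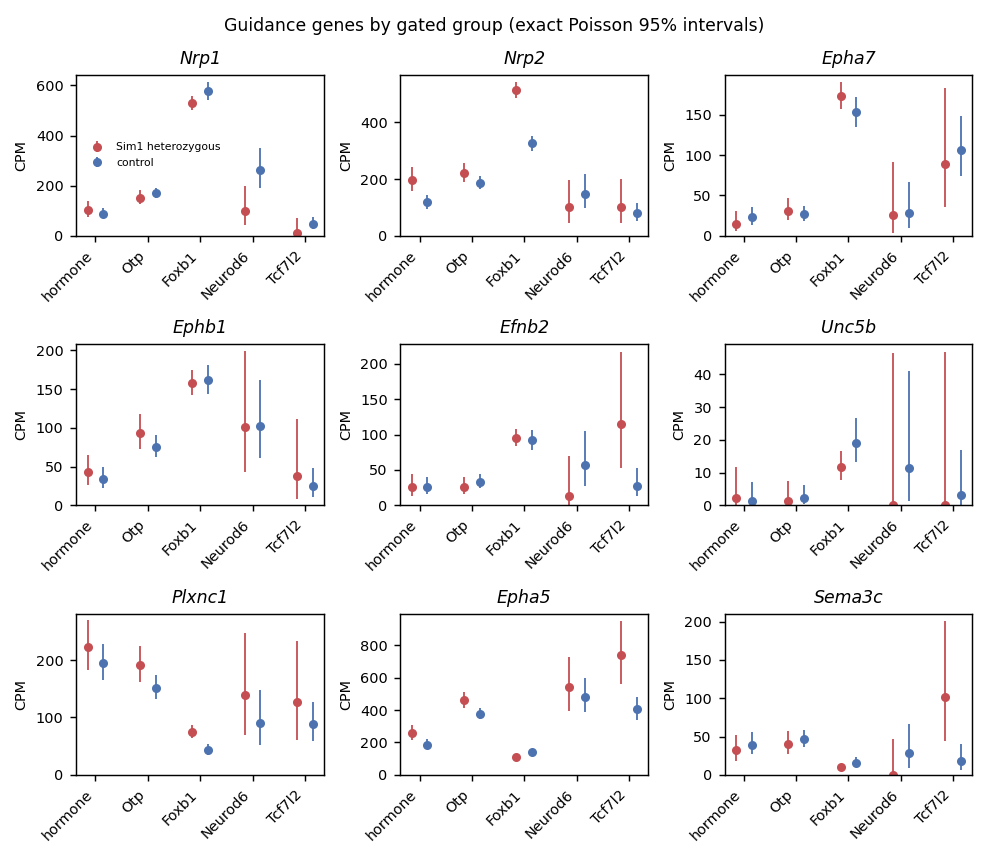
CPM of 9 members in each gated group, with points for the Sim1 heterozygous library to the left of those for the control library and exact Poisson intervals. Among the 3 large groups (hormone, Otp and Foxb1), Nrp1, Nrp2, Epha7, Ephb1, Efnb2 and Unc5b are highest in the Foxb1 group in both libraries, and Plxnc1, Epha5 and Sema3c are lowest there.

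Eph receptors of the A class showed opposite patterns. Epha7 (chromosome 4, 28813131 to 28967499, plus strand) was at 173 CPM [157 to 191] in Sim1 heterozygous and 153 CPM [135 to 172] in control Foxb1 cells, against 28.4 CPM in the other gated heterozygous cells and 35.2 CPM in the other gated control cells, 5.97-fold higher in the heterozygous and 4.32-fold higher in the control library. Hormone cells had 14.8 CPM [5.96 to 30.5] in heterozygous and 22.7 CPM [13.5 to 35.9] in control cells, and Otp cells 31.0 CPM [19.6 to 46.4] in heterozygous and 26.4 CPM [18.6 to 36.4] in control cells, which overlap. Tcf7l2 cells, at 89.0 CPM [35.8 to 183] in heterozygous and 107 CPM [74.4 to 148] in control cells, were the next highest after Foxb1 cells in both libraries. Epha4 (chromosome 1, 77367185 to 77515088, minus strand), which binds ephrins of both classes, was at 203 CPM [185 to 221] in Sim1 heterozygous and 133 CPM [116 to 151] in control Foxb1 cells, against 40.0 CPM in the other gated heterozygous cells and 58.9 CPM in the other gated control cells. Its call in Foxb1 cells was lost when the other groups were weighted equally and when cells were thinned to 1 depth, and Tcf7l2 cells were close behind in the control library, at 119 CPM [84.6 to 163]. Epha8 was at 12.8 CPM in heterozygous and 7.85 CPM in control Foxb1 cells and had no UMI in the hormone cells of either library, where 3 UMIs would be 6.35 CPM in the Sim1 heterozygous and 3.79 CPM in the control library.

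Epha5 (chromosome 5, 84054761 to 84417382, minus strand), also a receptor of A-class ephrins, had the reverse order. Foxb1 cells were lowest in both libraries, at 108 CPM [95.6 to 122] in Sim1 heterozygous and 142 CPM [125 to 160] in control cells, 3.80-fold (heterozygous) and 2.33-fold (control) below the other gated cells. Otp cells had 462 CPM [414 to 513] in heterozygous and 378 CPM [346 to 411] in control cells, Neurod6 cells 542 CPM [392 to 730] in heterozygous and 484 CPM [386 to 598] in control cells, and Tcf7l2 cells 737 CPM [560 to 953] in heterozygous and 406 CPM [340 to 481] in control cells. The intervals of these 3 groups overlap in the control library, and Tcf7l2 cells lie above Otp cells in the Sim1 heterozygous one. Hormone cells were between, at 258 CPM [215 to 308] in heterozygous and 186 CPM [157 to 218] in control cells, but that level was uneven within the group. Oxt or Avp cells had 25.9 CPM [3.14 to 93.6] in heterozygous and 62.8 CPM [39.8 to 94.2] in control cells, whereas Crh cells had 435 CPM [306 to 599] in heterozygous and 197 CPM [122 to 302] in control cells. Epha3, a further A-class receptor, was lower in Foxb1 cells from only 1 Sim1 heterozygous and 2 control UMIs there.

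Among B-class ephrins and their receptors, Efnb1, Efnb2 and Ephb1 were high in the same gated group. Whether single cells carried both ligand and receptor was not tested. Ephb1 (chromosome 9, 101922128 to 102354693, minus strand) was at 158 CPM [143 to 175] in Sim1 heterozygous and 161 CPM [143 to 181] in control Foxb1 cells, against 72.8 CPM in the other gated heterozygous cells and 58.9 CPM in the other gated control cells. Hormone cells had 42.4 CPM [25.9 to 65.4] in heterozygous and 34.1 CPM [22.5 to 49.6] in control cells. The difference between these 2 groups was thus alike in both libraries. Efnb2 (chromosome 8, 8617434 to 8661242, minus strand), a transmembrane ligand of Eph receptors of the B class and of Epha4, was at 94.9 CPM [83.2 to 108] in heterozygous and 91.9 CPM [78.4 to 107] in control Foxb1 cells, against 29.9 CPM in the other gated heterozygous cells and 31.9 CPM in the other gated control cells, 3.12-fold higher in the heterozygous and 2.87-fold higher in the control library. In Tcf7l2 cells it differed between the libraries, at 114 CPM [52.3 to 217] in heterozygous and 27.5 CPM [12.6 to 52.1] in control cells, from 9 UMIs in each library. Efnb1 followed in Foxb1 cells at 18 CPM in heterozygous and 20.2 CPM in control cells, against 7.28 CPM in the other gated heterozygous cells and 8.53 CPM in the other gated control cells. Efnb3, the third B-class ephrin, did not: it was at 73.3 CPM in heterozygous and 75.7 CPM in control Foxb1 cells and 110 CPM in heterozygous and 115 CPM in control Otp cells. A-class ephrins differed among themselves. Efna3 was at 56.1 CPM in heterozygous and 51.0 CPM in control Foxb1 cells, against 20.2 CPM in heterozygous and 30.7 CPM in control Otp cells, and Efna2 stayed between 11.4 and 25.4 CPM in the 5 gated groups of both libraries. Efna5 was highest in Otp cells and called lower in Tcf7l2 cells, where it had 0 heterozygous and 6 control UMIs, with 53.3 CPM in heterozygous and 35.9 CPM in control Foxb1 cells and 78.1 CPM in heterozygous and 69.9 CPM in control Otp cells.

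Among netrin receptors, Unc5b (chromosome 10, 60762593 to 60831581, minus strand) stood out in Foxb1 cells at a low level. It was at 11.6 CPM [7.78 to 16.7] in Sim1 heterozygous and 19.1 CPM [13.2 to 26.6] in control Foxb1 cells, against 1.46 CPM in the other gated heterozygous cells and 2.59 CPM in the other gated control cells, from 29 UMIs against 2 in the heterozygous and 34 UMIs against 7 in the control library. Ntn1, the netrin that binds it, was called higher in the same group from 5 heterozygous and 10 control UMIs, a call lost under 5 of the 16 alternatives. The Unc5b call held under all 16, but both genes rested on few molecules. Slit2 (chromosome 5, 47983138 to 48307733, plus strand), a secreted repellent, was highest in Foxb1 cells in both libraries, at 85.3 CPM [74.2 to 97.6] in heterozygous and 57.2 CPM [46.6 to 69.4] in control cells, and its receptor Robo1 in Neurod6 cells, at 50.4 CPM in heterozygous (4 UMIs) and 51.2 CPM in control cells (9 UMIs). Robo2, the Robo receptor with the most UMIs here, was spread more evenly in control cells, between 92.2 CPM in hormone cells and 118 CPM in Foxb1 cells. In Sim1 heterozygous cells it ranged from 61.4 CPM in hormone cells to 330 CPM in Tcf7l2 cells.

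Ligand and receptor pairs were compared from a list of 80 known pairings, 61 of which had both genes measured. In 6 pairs both genes were called higher in the same group. These were Efnb1 and Efnb2 with Ephb1, Efnb1 and Efnb2 with Epha4, and Ntn1 with Unc5b, all in Foxb1 cells, and Slit3 with Robo1 in Neurod6 cells, the last from at most 2 Slit3 UMIs in a library. In 4 pairs the genes were called in opposite directions in a group. Sema3c was low and Nrp1 high in Foxb1 cells, with the reverse in Otp cells, and Sema3c was low and Nrp2 high in Foxb1 cells. The others were Sema5b (higher) with Plxna1 (lower) in hormone cells, and Efna5 (lower) with Epha3 (higher) in Tcf7l2 cells, where Epha3 had 0 Sim1 heterozygous and 5 control UMIs. By the group of highest level, 14 pairs could be placed in both libraries, 6 with ligand and receptor in the same group and 8 in different groups. Sema7a and its receptor Plxnc1 were of the second kind: Sema7a was highest in Foxb1 cells, at 14.4 CPM in heterozygous and 16.3 CPM in control cells, and Plxnc1 in hormone cells. The genes of several pairs recur, so the pairs are not independent of each other. Of the 23 members with the same highest group in both libraries, 12 were highest in Foxb1 cells. How often unrelated genes would share a group was not tested, so the counts of pairs only describe the listed genes.

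The sequences just upstream of 4 members are shown because these members carry the contrast between Foxb1 cells and the rest: Epha7 and Efnb2 were high there, and Plxnc1 and Epha5 low. Each is the 250 bases before the gene's start in RefSeq (GRCm38.p6), 5' to 3' on the gene's own strand. They cover chr4:28812881-28813130 (plus strand), chr8:8661243-8661492 (minus), chr10:94944846-94945095 (minus) and chr5:84417383-84417632 (minus). Capitals mark TAATTA, a core bound by many homeodomain proteins, the class of Otp and Lhx1.
Epha7: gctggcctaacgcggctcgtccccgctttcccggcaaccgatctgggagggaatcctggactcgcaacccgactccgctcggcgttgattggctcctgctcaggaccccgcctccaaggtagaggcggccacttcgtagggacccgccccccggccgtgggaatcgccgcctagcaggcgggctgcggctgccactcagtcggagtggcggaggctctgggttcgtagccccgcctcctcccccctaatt
Efnb2: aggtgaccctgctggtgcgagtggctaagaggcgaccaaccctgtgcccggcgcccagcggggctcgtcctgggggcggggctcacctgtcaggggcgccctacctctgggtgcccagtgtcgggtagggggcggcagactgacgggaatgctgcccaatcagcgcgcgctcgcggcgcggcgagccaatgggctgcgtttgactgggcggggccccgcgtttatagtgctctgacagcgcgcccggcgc
Plxnc1: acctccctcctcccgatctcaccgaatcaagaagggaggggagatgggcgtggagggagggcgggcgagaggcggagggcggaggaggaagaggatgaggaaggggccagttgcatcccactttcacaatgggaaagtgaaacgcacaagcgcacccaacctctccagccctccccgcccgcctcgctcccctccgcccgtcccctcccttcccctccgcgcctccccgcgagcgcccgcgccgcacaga
Epha5: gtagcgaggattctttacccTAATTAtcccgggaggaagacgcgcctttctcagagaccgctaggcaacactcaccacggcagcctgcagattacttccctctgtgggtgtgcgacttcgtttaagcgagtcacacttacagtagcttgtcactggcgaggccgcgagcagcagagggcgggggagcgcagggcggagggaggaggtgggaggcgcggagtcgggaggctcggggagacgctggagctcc

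RefSeq windows were found for 47 of the 56 members, and the 250 bases before the start were searched on both strands for 5 short cores. TAATTA was found in 2 members (Epha5 and Robo3), against 5.65% of all 27025 genes with a window. The forkhead core TGTTTAC was found in 0 members, against 3.54% of all genes, and TACGTG, a core of basic helix-loop-helix PAS factors such as Sim1, in 3 members (Sema6b, Sema4b and Ephb3), against 3.12%. CTTTGAT, a core of TCF and LEF factors such as Tcf7l2, was found in Nrp2, against 3.72% of all genes, and CAGATG, an E-box of the NeuroD type, in 4 members, against 16.3%. Median GC content was 66.0% over the members and 52.0% over all genes, and 66.8% and 70.4% over the 9 members higher and the 6 lower in Foxb1 cells. A match describes letters in this window and no binding.

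The comparison of genotypes asked how loss of 1 Sim1 copy related to these genes in cells of the lineage. Over all neurons, 10 of 55 measured members (18.2%) were at least 1.5-fold higher in the Sim1 heterozygous library, against 7.87% of 14488 genes, and 3 (5.45%) were at least 1.5-fold lower, against 9.36%. Among genes with at least 100 UMIs, 5.17% of all genes were higher and 5.84% lower, with 6 members higher and 0 lower. The median log2 ratio (Sim1 heterozygous over control) was 0.16 over the members and 0.04 over all genes, and it was 0.09 for ligands and 0.21 for receptors. The members higher were 6 ligands (Slit3, Sema3a, Ntn4, Slit2, Sema3e and Sema4d) and 4 receptors (Epha8, Nrp2, Epha4 and Plxnb2). Intervals lay above 0 for 19 of the 55 members, against 2755 of the 14488 genes (19%). They lay below 0 for 3 of the 55 members, against 2228 of the 14488 genes (15.4%).

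The best counted of these, Nrp2, Epha4 and Slit2, each had their highest level in Foxb1 cells. Nrp2 was at 374 CPM [357 to 390] in Sim1 heterozygous and 212 CPM [200 to 223] in control neurons, a log2 ratio of 0.82 [0.72 to 0.92]. Epha4 was at 133 CPM [124 to 143] in heterozygous and 87.0 CPM [79.9 to 94.5] in control cells, a log2 ratio of 0.62 [0.45 to 0.78], and Slit2 at 63.4 CPM [56.8 to 70.5] in heterozygous and 40.9 CPM [36.1 to 46.1] in control cells, a log2 ratio of 0.63 [0.40 to 0.87]. Foxb1 cells made up the larger share of neurons in the Sim1 heterozygous library, as given above. When the 5 gated groups were weighted equally in both libraries, Nrp2 was at 0.41, Slit2 at 0.08 and Epha4 at 0.02, and 11 members were higher and 7 lower, against 13.3% of all genes higher and 16% lower with the same weights. Nrp1 changed sign: its log2 ratio was 0.29 [0.19 to 0.38] over neurons, from 342 CPM in Sim1 heterozygous and 280 CPM in control cells, and -0.34 with equal weights. Epha7 was at 0.46 [0.28 to 0.64] over neurons and -0.02 with equal weights. Epha5, low in Foxb1 cells, turned the other way: it was at 277 CPM in Sim1 heterozygous and 308 CPM in control neurons, a log2 ratio of -0.15 [-0.25 to -0.06], and at 0.40 with equal weights. Plxna4, a plexin that partners neuropilins, was nearly as different either way, at 0.56 [0.39 to 0.72] over neurons and 0.61 with equal weights. Equal weights give the Neurod6 group (33 Sim1 heterozygous cells) and the Tcf7l2 group (26) as much weight as each larger group. The libraries were far apart for Nrp1 in Neurod6 cells and for Epha5 and Plxna4 in Tcf7l2 cells. Ratios with equal weights thus rest in part on few cells and are not clean ratios per cell group.

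The other members past 1.5-fold rested on fewer molecules. Slit3 had 25 Sim1 heterozygous and 13 control UMIs, a log2 ratio of 1.17 [0.20 to 2.31], and Epha8 had 41 heterozygous and 23 control UMIs, 1.08 [0.34 to 1.92]. Sema3a, a repellent that binds Nrp1, had 75 heterozygous and 55 control UMIs, 0.72 [0.20 to 1.25], and Sema3e, the ligand of Plxnd1, 70 heterozygous and 55 control UMIs, 0.62 [0.09 to 1.16]. Plxnb2 had 68 heterozygous and 54 control UMIs, 0.60 [0.07 to 1.15], and Sema4d, a ligand of B-class plexins, 52 heterozygous and 41 control UMIs, 0.61 [0.00 to 1.25]. For Ntn4, with 37 heterozygous and 27 control UMIs, the log2 ratio was 0.72 and its interval included 0. The 3 members lower were all rare, and at this depth none of these differences could be told from counting error: Ntn1 had 9 Sim1 heterozygous and 22 control UMIs (-0.92 [-2.32 to 0.16]), Epha6 had 9 heterozygous and 21 control UMIs (-0.86 [-2.26 to 0.24]), and Robo3 had 13 heterozygous and 26 control UMIs (-0.67 [-1.81 to 0.29]). Better counted, but short of 1.5-fold, were Sema6c, at 17.6 CPM in heterozygous and 25.1 CPM in control cells (-0.50 [-0.89 to -0.13]), and Sema3c, at 23.3 CPM in heterozygous and 30.5 CPM in control cells (-0.39 [-0.73 to -0.06]).

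**Figure D3:**
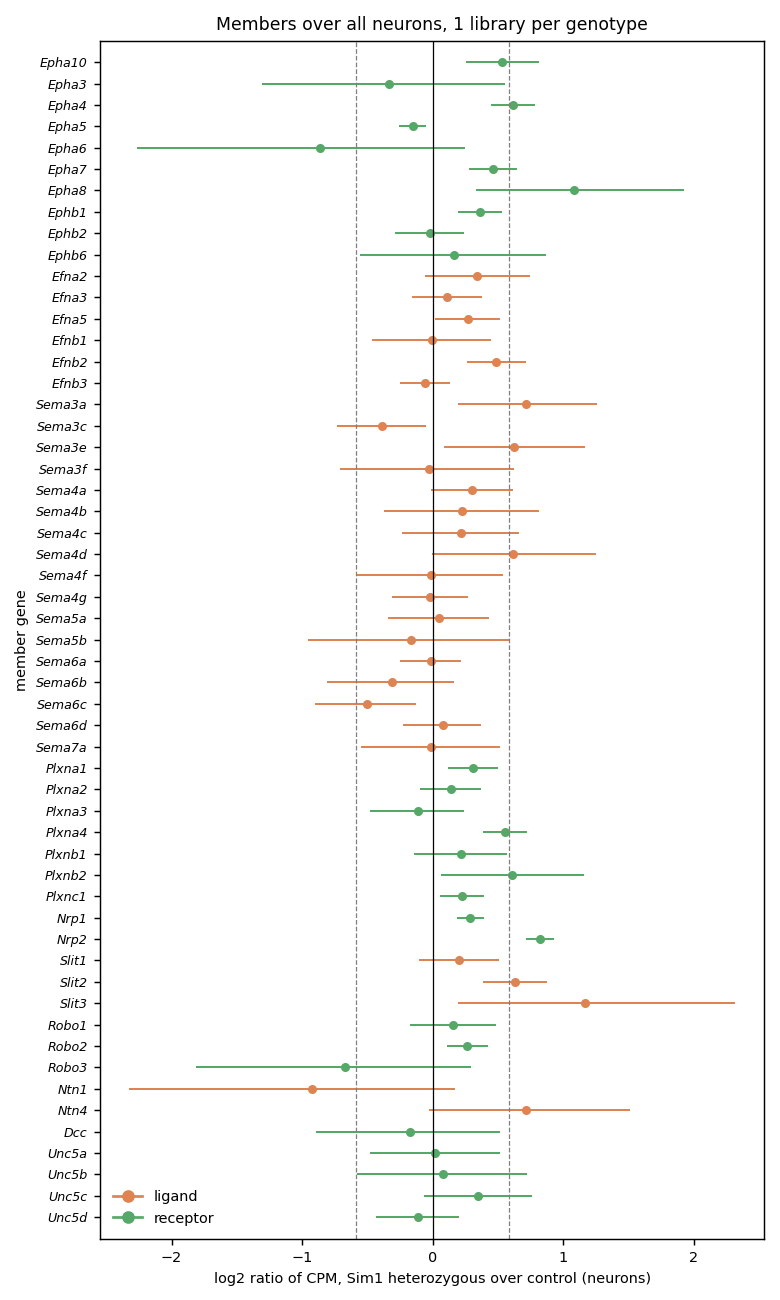
Log2 ratio of CPM over neurons, Sim1 heterozygous over control, for the 55 measured members, with 95% conditional binomial intervals; ligands and receptors are coloured apart and dashed lines mark 1.5-fold. Nrp2, Epha4 and Slit2 lie past the upper line with narrow intervals, while the 3 members past the lower line have intervals that cross 0.

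Within the Foxb1 group, which removes the share of Foxb1 cells from the comparison, 9 of 47 members with at least 30 UMIs there were at least 1.5-fold higher in Sim1 heterozygous cells (19.1%, against 8.42% of genes) and 5 were lower (10.6%, against 7.8%). The median log2 ratio was 0.15 over the members and 0.04 over all genes. Nrp2 remained higher, at 515 CPM in Sim1 heterozygous and 326 CPM in control Foxb1 cells (0.66 [0.52 to 0.80]), as did Epha4, at 203 CPM in heterozygous and 133 CPM in control cells (0.61 [0.38 to 0.84]). Slit2 was just short of the mark, at 85.3 CPM in heterozygous and 57.2 CPM in control cells (0.57 [0.23 to 0.93]). Plxnc1 was also higher, at 74.5 CPM in heterozygous and 43.2 CPM in control cells (0.78 [0.40 to 1.19]), although it was low in this group. Nrp1, at 530 CPM in heterozygous and 577 CPM in control cells (-0.12), and Epha7, at 173 CPM in heterozygous and 153 CPM in control cells (0.18 [-0.04 to 0.40]), were close to level, in contrast to their ratios over all neurons. Sema6c, a transmembrane semaphorin, was lower, at 14.8 CPM in heterozygous and 29.7 CPM in control cells (-0.99 [-1.65 to -0.37]), and was at 14.8 CPM in heterozygous and 31.4 CPM in control Otp cells (-0.99 [-2.19 to -0.11]). For the other 6 members higher in Foxb1 cells (Sema3e, Plxnb2, Epha8, Sema4d, Unc5c and Sema4a) only Sema4a had an interval above 0 (0.59 [0.03 to 1.20]), and for the other 4 lower (Unc5b, Sema3c, Unc5d and Sema6b) each interval included 0.

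**Figure D4:**
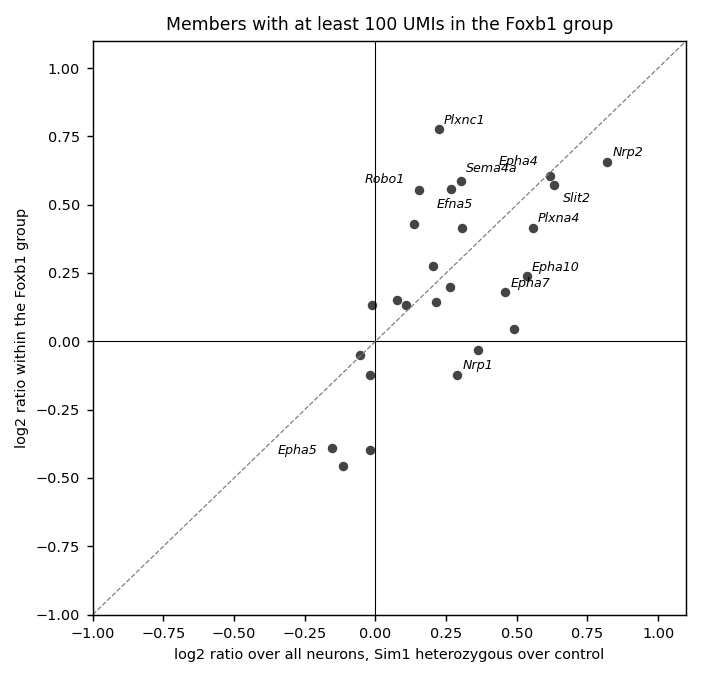
Log2 ratio, Sim1 heterozygous over control, over all neurons (horizontal) and within the Foxb1 group (vertical) for the 26 members with at least 100 UMIs in the Foxb1 group. Nrp2, Epha4 and Slit2 are above 0.5 on both axes, while Nrp1 is at 0.29 over neurons and -0.12 within the group. Points share the Foxb1 cells between axes, names mark members past 0.5 on either axis plus Nrp1, Epha7 and Epha5, and the dashed line marks equal ratios.

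The other groups held fewer molecules. Among Otp cells 6 of 33 members were at least 1.5-fold higher in the Sim1 heterozygous library (18.2%, against 9.74% of genes) and 1 was lower (3.03%, against 8.51%), with a median log2 ratio of -0.03 against 0.03 for all genes. Sema5a was at 45.8 CPM in Sim1 heterozygous and 20.7 CPM in control Otp cells (1.14 [0.39 to 1.91]), Sema6d at 48.4 CPM in heterozygous and 24.2 CPM in control cells (1.00 [0.28 to 1.72]) and Robo2 at 179 CPM in heterozygous and 110 CPM in control cells (0.70 [0.35 to 1.04]). The intervals of the other 3 higher members, Efna2, Slit1 and Epha10, included 0. Summed fibroblast markers were at 5.38 CPM in Sim1 heterozygous and 53.5 CPM in control Otp cells, from 2 of 6 genes in heterozygous and 4 of 6 in control cells, and their part in these ratios was not tested further.

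Among hormone cells 1 of 23 members was higher (4.35%, against 11.6% of genes) and 3 were lower (13.0%, against 8.45%), with a median of -0.01 against 0.08 for all genes. Nrp2 was the higher one, at 197 CPM [159 to 241] in Sim1 heterozygous and 118 CPM [94.8 to 144] in control cells (0.74 [0.31 to 1.18]). Nrp2 was thus at least 1.5-fold higher in both the hormone and the Foxb1 group, but was short of 1.5-fold in the Otp and Tcf7l2 groups. Epha4 was lower, at 40.2 CPM in heterozygous and 74.6 CPM in control cells (-0.84 [-1.72 to -0.12]), as were Unc5c, at 12.7 CPM in heterozygous and 34.1 CPM in control cells (-1.26 [-2.99 to -0.12]), and Sema6d, at 21.2 CPM in heterozygous and 34.1 CPM in control cells (-0.60 [-1.90 to 0.40]). Most control UMIs of Epha4 and Unc5c came from Oxt or Avp cells, 35 of 59 for Epha4 and 21 of 27 for Unc5c, and such cells were the rarer in the Sim1 heterozygous library. In Oxt or Avp cells alone Epha4 was at 168 CPM [89.7 to 288] in Sim1 heterozygous and 95.5 CPM [66.5 to 133] in control cells, from 13 heterozygous and 35 control UMIs, the opposite direction. The lower Epha4 level of the whole hormone group was thus not seen in its Oxt or Avp cells. A ratio over the whole hormone group mixes the make-up of the group with the level per cell, and the part of each was not tested. In Crh cells Robo2 had 5 Sim1 heterozygous and 29 control UMIs, at 58.7 CPM [19.1 to 137] in heterozygous and 273 CPM [183 to 391] in control cells.

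For Tcf7l2 cells 6 of 10 members were higher (60%, against 16.7% of genes) and 1 was lower (10%, against 13.1%), from 26 Sim1 heterozygous cells. Robo2 was at 330 CPM [216 to 484] in Sim1 heterozygous and 116 CPM [82.0 to 159] in control cells (1.53 [0.73 to 2.27]), Plxna4 at 178 CPM in heterozygous and 73.2 CPM in control cells (1.32 [0.22 to 2.29]) and Epha5 at 737 CPM in heterozygous and 406 CPM in control cells (0.88 [0.39 to 1.32]). Summed fibroblast markers had 0 UMIs in these Sim1 heterozygous cells and 70 UMIs (214 CPM, 5 of 6 genes) in the control cells, glial markers were at 203 CPM in heterozygous and 146 CPM in control cells, and their part was not tested. For Neurod6 cells only 3 members reached 30 UMIs, 0 of them higher (against 12.3% of genes) and 1 lower (against 9.97%), which was Nrp1 at 101 CPM in heterozygous and 262 CPM in control cells (-1.24 [-2.67 to -0.28]).

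Other genes of axon guidance, from a list of 54 genes outside the members, were closer to level. The list held adhesion, cytoplasmic and co-receptor genes, and also ligands and receptors such as Cxcl12, Draxin, Rgma and Neo1. Of 47 measured over neurons, 0 were at least 1.5-fold higher (against 7.87% of all genes) and 1 was lower (2.13%, against 9.36%). Among genes with at least 100 UMIs, the shares of all genes were 5.17% and 5.84%. The median log2 ratio was 0.04, that of all genes. Intervals lay above 0 for 11 of the 47 and below 0 for 6, against 2755 and 2228 of all 14488 genes. The lower one was Cxcl12, a chemokine, with 5 Sim1 heterozygous and 27 control UMIs. The immunoglobulin-type adhesion molecules in the list were above 0 but short of the mark, with Cntn2 at 0.54, Cntn1 at 0.50, L1cam at 0.49, Nrcam at 0.48, Chl1 at 0.41, Nfasc at 0.15 and Dscam at 0.11. The growth cone proteins Gap43 and Dpysl3 were at -0.16 and -0.21, named after their values were seen. Relatives of Dpysl3 in the list were at -0.11 (Dpysl2), -0.08 (Crmp1), -0.004 (Dpysl5) and 0.17 (Dpysl4).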

How the data were processed

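For each library the authors deposited a matrix of raw UMI counts (genes by cell barcodes), and a merged matrix held identical values. Per the submitters' processing notes, bcl2fastq, Picard, STAR 2.6.0b and Seurat 3 were used with the mouse build mm10. Which gene annotation and counter were used, and whether strand was used, was not given in the sources used here. Reads of Ephb1, Unc5c, Sema4c and Efna3 therefore could not be told apart from those of annotated genes that overlap them on the opposite strand.

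UMIs were summed over the cells of a group and divided by the group's total. Ratios between the libraries, on a log2 scale, have the control library as denominator; 1 UMI was added to each sum, and genes needed at least 30 UMIs. Intervals of levels are exact Poisson, and those of ratios conditional exact binomial. Cells in more than 1 factor gate, cells with at least 10 UMIs of Pmch and cells in no gate were left out of the 5 groups. Doublets were not removed. The ratio code was tested on simulated data. Python 3.11.15, numpy 2.4.6, scipy 1.17.1 and pandas 2.3.3 were used, with coordinates from GENCODE M21.

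The members, the gene lists and the gates were chosen with earlier results of these data known. Values are named for the 12 members with the most UMIs, members past 1.5-fold between the libraries, up to 6 members higher and 4 lower per gated group, and members of the pairs described. The other members named, such as Sema6a, Sema6c, Sema6d and Unc5c, were chosen after their values were seen.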

Additional observations from a re-analysis of the deposited data

Results flagged for a closer look

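For 3 members the ratio of Sim1 heterozygous to control cells ran in opposite directions in 2 cell groups, each past 1.5-fold. The difference between the groups was not tested, since each group has 1 library per genotype. Epha4 had a log2 ratio of 0.61 in the Foxb1 group and -0.84 in the hormone group. Unc5c had a log2 ratio of 0.61 in the Foxb1 group and -1.26 in the hormone group. For both, the mix of hormone cells differed between the libraries, as given above. Sema6d, a transmembrane semaphorin, had a log2 ratio of 1.00 in the Otp group and -0.60 in the hormone group, where its interval included 0.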

How the results depend on the processing

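The count of 10 members higher in the Sim1 heterozygous library became 6 of 55 with median-of-ratios scaling (against 6.57% of all genes). It became 6 of 42 with a minimum of 100 UMIs (against 5.17%). The count of 3 lower became 0 for cells with at least 800 genes (against 9.19% of all genes). It was 1 with the mean of per-cell CPM (against 11.2%) and 1 with cells thinned to 857 UMIs (against 8.01%). With minimums of 10 and 100 UMIs it was 5 (against 13%) and 0 (against 5.84%), and with gated groups weighted equally 7 (against 16%). The median log2 ratio of 0.16 became 0.31 with per-cell means (0.04 over all genes) and 0.27 after thinning (0.05 over all genes). With gated groups weighted equally it became 0.09 (0.01 over all genes). Of 322 recomputed ratios of 23 members, 24 left their interval and 10 changed sign, 5 of the 10 with equal group weights (Nrp1 to -0.34, Epha7 to -0.02, Epha5 to 0.40, Efnb3 to 0.16 and Robo3 to 0.64). Of the others, Efnb3, reported at -0.06, was just above 0 in 2, and Ntn1 was at 0.078 and Robo3 at 0.53 with per-cell means, and Sema4d at -0.56 after thinning. The cause was not tested. The 26 calls of higher level in a group became 13 with a minimum of 100 UMIs and 15 with an equal CPM pseudocount, and the 26 of lower level became 16 after thinning. Thinning also changed which members were called higher. In Foxb1 cells 6 of the 7 calls then were as reported (against 1.89% of all genes called). In Neurod6 cells it was 2 of 11 (against 20%), and in Tcf7l2 cells 0 of 10 (against 16.9%). No share of all genes was computed for the totals over groups. In Foxb1 cells, Efnb2, Epha7, Ephb1, Nrp1, Nrp2 and Unc5b kept their calls of higher level, and Epha5, Plxnc1, Sema3c and Sema5a those of lower level, under all 16 alternatives that could be compared gene by gene. Thinning left out 613 heterozygous and 156 control cells. No paired analysis was possible because each genotype has 1 library. Depth limits members with few UMIs, and pooling leaves no measure of spread between animals.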

Other observations

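Glia-like cells, 52 in the Sim1 heterozygous and 39 in the control library, carried some members at levels unlike those of neurons. Sema6a, a transmembrane semaphorin that binds class A plexins, was at 417 CPM [267 to 621] in heterozygous and 305 CPM [183 to 476] in control glia-like cells, from 24 heterozygous and 19 control UMIs. In neurons it was at 55.3 CPM [49.2 to 62.0] in the heterozygous and 55.9 CPM [50.2 to 61.9] in the control library. Plxnb1, a receptor of Sema4d, was at 86.9 CPM [28.2 to 203] in heterozygous and 176 CPM [88.1 to 316] in control glia-like cells, against 25.3 CPM in heterozygous and 21.8 CPM in control neurons. Sema5b had 5 UMIs in the glia-like cells of each library. The glial gate itself selects cells by other genes, so these levels describe the gated cells.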
